A study of Mus musculus with 32 samples.

Results

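The colony-stimulating factors and their receptors were followed as 6 genes, Csf1, Csf1r, Csf2ra, Csf2rb, Csf2rb2 and Csf3r, among the 18588 genes of a microglial RNAseq table. They were chosen by family, from their Entrez numbers (12977, 12978, 12982, 12983, 12984 and 12986), and not by their values, although earlier results of these data were known when the family was proposed. All 6 had a row. Of the other ligands of the family, Il34, Csf2 and Csf3, 0 of 3 had a row under their names, so they were not analysed here.

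The study compared rTg4510 mice with wild type (WT) littermates at 2, 4, 6 and 8 months of age, to follow microglia as tau pathology develops. The rTg4510 animals were females with 2 transgenes, a CaMKIIα-controlled tetracycline transactivator and a responder coding for mutant human tau, so tau is made in forebrain neurons and not in microglia. The WT animals were females without either transgene, labelled with the strain 129/FVB F1, so an effect of the transactivator cannot be told apart from an effect of tau. CD11b-positive cells were captured with magnetic beads from forebrains pooled over several animals for each library. Of the 32 libraries, 28 passed the authors' quality control and are analysed here. Each genotype had 4 of these 28 at 2 and 6 months and 3 at 4 and 8 months. Values are log2 signals per gene, in which the median over all genes was 5.63 in every library. The signals are not scaled to gene length, so levels were compared between libraries and not between genes. The exception is the set of genes with a mean signal at least as high as that of Csf1r. The libraries were sequenced deeply according to the study's methods, but the signals do not hold the read total of each library or the reads behind a value.

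Macrophage colony-stimulating factor, coded by Csf1, and IL-34 both bind the receptor tyrosine kinase coded by Csf1r, on which microglia depend for survival. Granulocyte-macrophage colony-stimulating factor binds an alpha chain, coded by Csf2ra, and signals through a common beta chain, coded by Csf2rb, which also serves the receptors of IL-3 and IL-5. The mouse has an additional beta chain, coded by Csf2rb2, that serves IL-3 alone. Csf3r codes for the receptor of granulocyte colony-stimulating factor, best known from neutrophils.

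The cells carried the markers of microglia. All 9 microglia markers examined (P2ry12, Tmem119, Cx3cr1, Sall1, Itgam, Aif1, Fcrls, Olfml3 and Siglech) were above the lowest values of every library. Their summed signal was lower in rTg4510 at each age, with log2 values of 14.19 to 14.44 against 14.46 to 14.73 in WT at 2 months and of 13.69 to 13.83 against 14.20 to 14.49 at 8 months. In libraries of sorted bulk cells, fewer cells of a type and less RNA per cell cannot be told apart. Replicate 3 of both genotypes at 4 months and replicate 4 of both at 8 months had been excluded by the authors for failing quality control, and are left out except where 32 libraries are stated.

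Csf1, the ligand, rose most of the 6 genes and did so at every age. The gene lies on the minus strand at chr3:107741048-107760469 (GRCm38.p6). In WT its log2 signals were 5.53, 5, 5.25 and 5.30 at 2 months, 5.27, 4.79 and 5.55 at 4 months, 4.87, 4.36, 5.26 and 5.79 at 6 months, and 5.18, 5.76 and 5.20 at 8 months. In rTg4510 they were 7.37, 6.84, 7.31 and 7.07 at 2 months, 8.98, 8.87 and 9.35 at 4 months, 8.65, 8.45, 8.88 and 9.13 at 6 months, and 8.88, 9.14 and 8.68 at 8 months. Every rTg4510 library was above every WT library of any age. The WT groups overlapped one another, the rTg4510 group of 2 months stood alone between them and the older rTg4510 groups, and the rTg4510 groups of 4, 6 and 8 months overlapped.

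**Figure D1:**
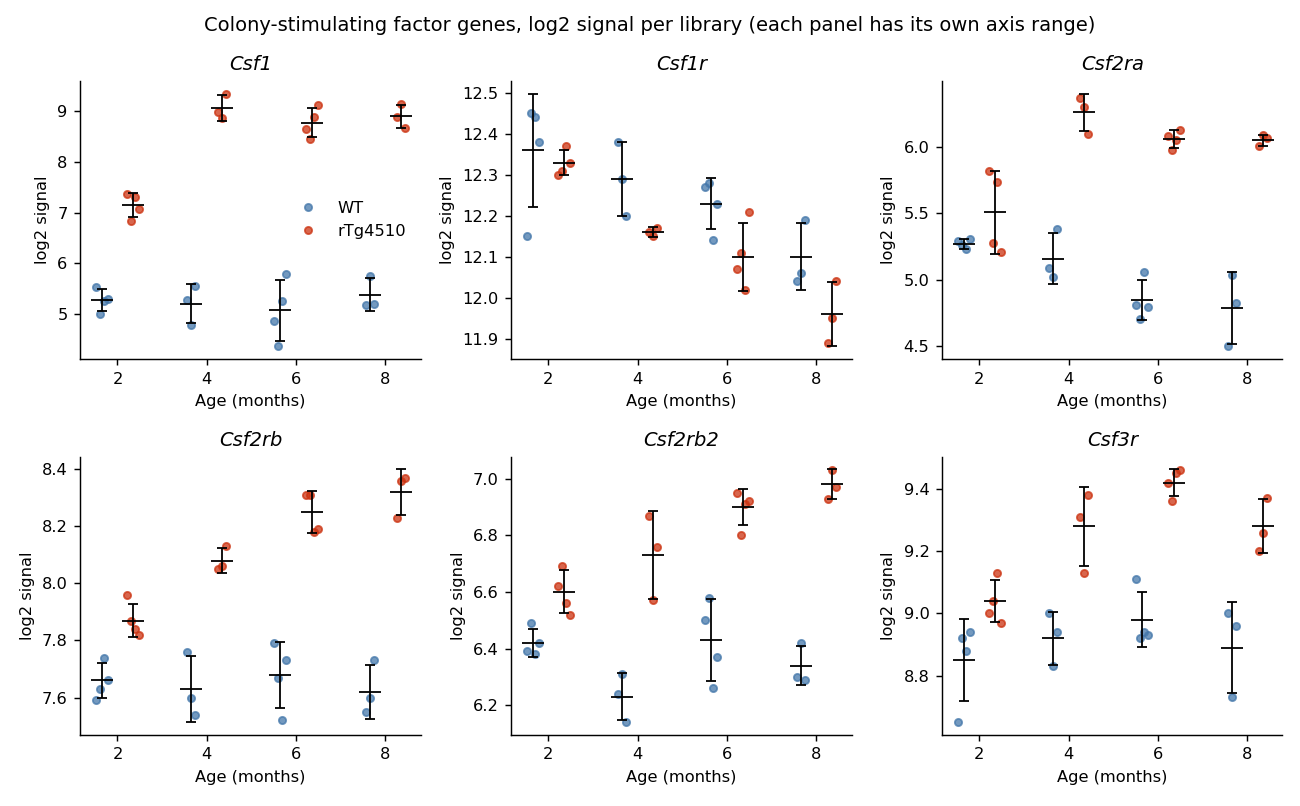
Log2 signal of each of the 6 genes (y axis, a separate range in each panel) in the 28 libraries by age in months (x axis), with WT in blue, rTg4510 in red, and black bars for the group mean ± SD. Csf1 is between 6.84 and 9.35 in rTg4510 and between 4.36 and 5.79 in WT, while Csf1r stays between 11.89 and 12.45 in all libraries.

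The fold change of Csf1 was 3.68 at 2 months (log2 fold change 1.88, SE 0.246, FDR 7.79e-05), 14.6 at 4 months (3.87, SE 0.285, FDR 2.63e-09), 13 at 6 months (3.70, SE 0.246, FDR 2.04e-10) and 11.5 at 8 months (3.53, SE 0.285, FDR 7.02e-09). Sorted by size, these were increases number 4, 12, 16 and 17 of the 18588 genes. The FDR is Benjamini-Hochberg adjusted over all genes within a contrast, from limma's linear model with 1 mean for each of the 8 groups. A differentially expressed gene (DEG) is one that changed by more than 1.5 fold with an FDR below 0.05. The genotype difference of Csf1 was larger at 4 than at 2 months by 1.99 on the log2 scale (SE 0.376, FDR 0.00216), a test of the difference itself. From 4 to 6 months it moved by -0.16 (95% confidence interval -0.95 to 0.62), and from 6 to 8 months by -0.18 (-0.96 to 0.61), and neither passed. Within rTg4510, Csf1 rose by 1.92 from 2 to 4 months (SE 0.266, FDR 3.47e-05), while within WT it differed by 0.11 between 8 and 2 months (-0.45 to 0.66, FDR 0.871).

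The promoter of Csf1 is shown because this gene changed most of the 6. The 250 bases before the start site, from the RefSeq promoter table of GRCm38.p6, are given on the gene's strand, with the match to the NF-kappaB consensus in capitals.
Csf1, chr3:107760470-107760719, minus strand: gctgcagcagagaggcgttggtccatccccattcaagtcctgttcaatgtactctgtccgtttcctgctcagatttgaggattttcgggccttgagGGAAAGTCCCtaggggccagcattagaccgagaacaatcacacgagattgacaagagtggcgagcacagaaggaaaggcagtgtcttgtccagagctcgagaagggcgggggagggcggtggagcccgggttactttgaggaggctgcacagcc
The match starts 154 bases before the start site. On both strands, 7.25% of 32851 promoter windows of this length hold the consensus, 23.3% hold the PU.1 core GAGGAA and 6.75% hold the AP-1 site TGANTCA. Neither of the latter was in the Csf1 window. Among the other members with a window, Csf3r had 1 NF-kappaB match, at 129 bases, and 1 PU.1 core, at 86 bases, Csf2rb2 had 1 PU.1 core, at 167 bases, and Csf2ra had 2 PU.1 cores, at 14 and 8 bases before the start. No AP-1 site was in these windows, no 2 matches overlapped, and a match is a description of letters, not of binding.

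Csf1r, the receptor of Csf1, had a high and narrow signal and no DEG call at any age. The gene lies on chromosome 18. In WT the log2 signals were 12.15, 12.45, 12.44 and 12.38 at 2 months, 12.38, 12.29 and 12.20 at 4 months, 12.27, 12.28, 12.14 and 12.23 at 6 months, and 12.04, 12.06 and 12.19 at 8 months. In rTg4510 they were 12.30, 12.31, 12.37 and 12.33 at 2 months, 12.16, 12.15 and 12.17 at 4 months, 12.07, 12.11, 12.02 and 12.21 at 6 months, and 11.89, 11.95 and 12.04 at 8 months. The genotypes overlapped at 2 and 6 months and met at 12.04 at 8 months, and at 4 months all 3 rTg4510 libraries were below all 3 WT libraries. Neighbouring groups overlapped along the whole order of the 8 means, from WT at 2 months (12.36 ± 0.138, SD, n = 4) to rTg4510 at 8 months (11.96 ± 0.0788, n = 3).

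The genotype differences of Csf1r were -0.03, -0.13, -0.13 and -0.14 on the log2 scale at 2, 4, 6 and 8 months, with FDR values of 0.888, 0.177, 0.0965 and 0.147. Averaged over the 4 ages, the difference was -0.11 (SE 0.0313, FDR 0.00834), below 1.5 fold. Csf1r fell with age in both genotypes, by 0.26 from 2 to 8 months in WT (SE 0.0627, FDR 0.0228) and by 0.37 in rTg4510 (SE 0.0627, FDR 0.00018), and the genotype difference did not pass a test between these ages (-0.11, 95% confidence interval -0.29 to 0.08, FDR 0.553). The comparison of 8 with 2 months was chosen after the values were seen. The WT fall no longer passed the FDR without any of WT replicates 2, 3 and 4 of 2 months or 1 and 2 of 8 months (-0.25 to -0.23), or after quantile normalization.

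The result for Csf1r depended on the scale. After quantile normalization of the libraries it was lower in rTg4510 by -0.34 at 2 months (FDR 0.00628), -0.65 at 4 months (FDR 5.77e-06), -0.71 at 6 months (FDR 1.38e-07) and -0.69 at 8 months (FDR 2.31e-06), a DEG at 4, 6 and 8 months. Csf1r had a mean signal of 12.20, and 177 genes, Csf1r itself included, were at least as high. On the deposited scale these 177 genes had median genotype differences of 0.28, 0.40, 0.57 and 0.45 at the 4 ages, and after quantile normalization of 0.05, 0, 0.02 and 0. Csf1r was thus below the median of genes at least as high on both scales, and differed from the median of all genes by 0.14 or less on the deposited one.

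The distance between ligand and receptor within a library does not depend on a library's scaling factor. On the log2 scale, Csf1 minus Csf1r was -7.09 ± 0.348 in WT and -5.18 ± 0.236 in rTg4510 at 2 months (SD, n = 4 each), a difference of 1.91 with no overlap (exact permutation test, two-sided, p = 0.0286, which is the lowest that 4 against 4 allows). At 6 months it was -7.16 ± 0.64 in WT and -3.33 ± 0.27 in rTg4510 (n = 4 each, exact p = 0.0286). With same-numbered libraries paired as a replicate block, the differences of 1.91 and 3.83 had an exact sign-flip p of 0.125, the smallest that 4 pairs allow. At 4 and 8 months, with 3 against 3 libraries, the differences were 4.00 and 3.66, each with no overlap and an exact p of 0.1, below which this design cannot go.

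**Figure D2:**
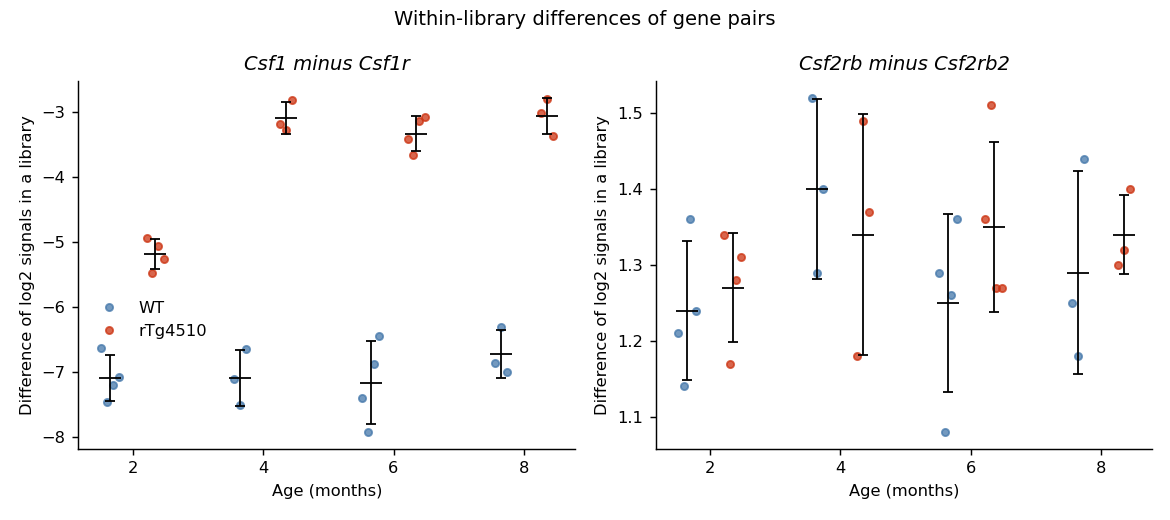
Difference of the log2 signals of 2 genes in the same library (y axis, a separate range in each panel) by age in months (x axis), for Csf1 minus Csf1r (left) and Csf2rb minus Csf2rb2 (right), with WT in blue, rTg4510 in red and black bars for the mean ± SD. The left panel separates the genotypes at all 4 ages, from -7.92 to -6.31 in WT and from -5.47 to -2.80 in rTg4510, while in the right panel all 28 values lie between 1.08 and 1.52 and the genotypes overlap at each age.

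Csf2ra, the ligand-binding chain of the granulocyte-macrophage receptor, did not pass at 2 months and was a DEG at 4, 6 and 8 months. The gene lies at chr19:61217191-61228461. In WT the log2 signals were 5.29, 5.26, 5.23 and 5.31 at 2 months, 5.09, 5.02 and 5.38 at 4 months, 4.81, 4.71, 5.06 and 4.80 at 6 months, and 4.50, 5.04 and 4.83 at 8 months. In rTg4510 they were 5.82, 5.28, 5.74 and 5.21 at 2 months, 6.37, 6.30 and 6.10 at 4 months, 6.08, 5.98, 6.05 and 6.13 at 6 months, and 6.01, 6.09 and 6.07 at 8 months. At 2 months replicates 1 and 3 of rTg4510 were above all WT libraries, replicate 2 was among them and replicate 4 (5.21) was just below them. From 4 months on the genotypes did not overlap. The fold changes were 1.18 (log2 0.24, SE 0.126, FDR 0.365), 2.14 (1.10, SE 0.146, FDR 6.59e-06), 2.32 (1.21, SE 0.126, FDR 1.22e-07) and 2.40 (1.26, SE 0.146, FDR 7.8e-07) at 2, 4, 6 and 8 months.

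The genotype difference of Csf2ra grew by 0.86 between 2 and 4 months (SE 0.193, FDR 0.00839) and, in the comparison added later, by 1.02 between 2 and 8 months (SE 0.193, FDR 0.00147). The first of these did not pass with all 32 libraries or with the 4 groups of the contrast alone. Values moved in both genotypes. Within rTg4510, Csf2ra rose by 0.75 from 2 to 4 months (SE 0.136, FDR 0.000674), and within WT it fell by 0.48 from 2 to 8 months (SE 0.136, FDR 0.0486). The WT change was below 1.5 fold and lost its FDR in 21 of 28 fits with 1 library left out, with values from -0.61 to -0.34.

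The 2 beta chains are neighbours on chromosome 15, at chr15:78325800-78351001 (Csf2rb) and chr15:78282507-78305721 (Csf2rb2), and their coding sequences are nearly identical, which bears on how far their signals can be separated. In the coding sequences of the GENCODE M21 transcripts, of 2688 and 2634 bases, 95.2% of 2628 aligned bases were the same, and the longest identical run was 242 bases. Of all 100-base windows, the length of the study's reads, 11% of those of Csf2rb and 11.3% of those of Csf2rb2 were found unchanged in the other gene. A window within exon 14 that is the same in both genes and the window within 1 exon, exon 4, that differs most are printed to show both ends of this range, with differing bases in capitals.
Csf2rb, chr15:78348577-78348676, plus strand: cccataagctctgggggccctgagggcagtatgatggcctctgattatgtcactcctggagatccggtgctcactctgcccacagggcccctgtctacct
Csf2rb2, chr15:78284772-78284871, minus strand: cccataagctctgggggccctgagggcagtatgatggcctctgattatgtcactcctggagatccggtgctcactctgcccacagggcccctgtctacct
Csf2rb, chr15:78338887-78338986, plus strand: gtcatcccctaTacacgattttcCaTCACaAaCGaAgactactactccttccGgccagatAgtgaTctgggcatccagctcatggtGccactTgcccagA
Csf2rb2, chr15:78294345-78294444, minus strand: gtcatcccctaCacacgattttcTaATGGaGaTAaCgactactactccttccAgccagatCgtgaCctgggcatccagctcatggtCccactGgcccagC
The last pair differs at 16 of 100 bases. The windows stand for single reads, and the mates of paired reads and bases outside the coding sequences were not compared. How reads that fit both genes were counted is not given in the sources used here, so the split between the 2 signals is uncertain.

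**Figure D3:**
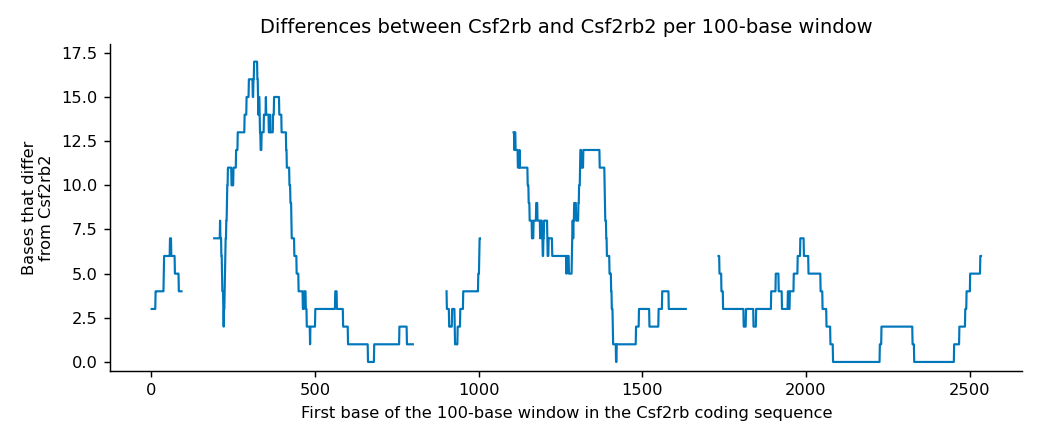
Number of bases that differ between Csf2rb and Csf2rb2 in each 100-base window of the aligned coding sequences without a gap (y axis), by the window's first base in the Csf2rb coding sequence (x axis). The count runs from 0 to 17 with a median of 3, and the longest stretches at 0 start at bases 2083 and 2331. There, a single read of this length fits both genes.

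Csf2rb, the common beta chain, rose with age in rTg4510 and stayed level in WT. In WT its log2 signals were 7.59, 7.63, 7.74 and 7.66 at 2 months, 7.76, 7.60 and 7.54 at 4 months, 7.79, 7.67, 7.52 and 7.73 at 6 months, and 7.55, 7.60 and 7.73 at 8 months. In rTg4510 they were 7.96, 7.87, 7.84 and 7.82 at 2 months, 8.05, 8.06 and 8.13 at 4 months, 8.31, 8.31, 8.18 and 8.19 at 6 months, and 8.23, 8.36 and 8.37 at 8 months. All rTg4510 libraries were above all WT libraries, the 4 WT groups overlapped one another, and in rTg4510 only the groups of 6 and 8 months overlapped. The fold changes were 1.16, 1.36, 1.48 and 1.62 at 2, 4, 6 and 8 months, with log2 SE values of 0.0589 to 0.068 and FDR values of 0.0292, 3.82e-05, 1.13e-07 and 8.51e-08, so the 1.5-fold mark was passed at 8 months. At 2 months the FDR was no longer under 0.05 with moderated variances, with the libraries of 2 months alone, after quantile normalization, or without any of 6 single libraries (replicates 1, 2 and 3 of rTg4510 and 1, 2 and 4 of WT). With all 32 libraries neither the value at 2 months (0.22) nor that at 4 months (0.19) passed. With 1 library left out, the log2 fold change at 6 months ranged from 0.52 to 0.61, across the 1.5-fold mark of 0.585.

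Csf2rb2, the beta chain for IL-3, passed the FDR threshold from 4 months on and the fold threshold at 8 months. In WT its log2 signals were 6.39, 6.49, 6.38 and 6.42 at 2 months, 6.24, 6.31 and 6.14 at 4 months, 6.50, 6.58, 6.26 and 6.37 at 6 months, and 6.30, 6.42 and 6.29 at 8 months. In rTg4510 they were 6.62, 6.69, 6.56 and 6.52 at 2 months, 6.87, 6.57 and 6.76 at 4 months, 6.95, 6.80, 6.91 and 6.92 at 6 months, and 6.93, 7.03 and 6.97 at 8 months. The genotypes did not overlap at any age, although neighbouring groups overlapped along the order of the 8 means. The fold changes were 1.13 (FDR 0.141), 1.42 (FDR 3.61e-05), 1.38 (FDR 8.66e-06) and 1.56 (FDR 1.23e-06), a DEG at 8 months. The FDR at 4 months was no longer under 0.05 with all 32 libraries (log2 fold change 0.26) or with the libraries of 4 months alone (0.50). With 1 library left out, the log2 fold change at 4 months ranged from 0.43 to 0.59, across the 1.5-fold mark of 0.585.

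Between 2 and 8 months the genotype difference grew by 0.48 for Csf2rb (SE 0.09, FDR 0.00145) and by 0.46 for Csf2rb2 (SE 0.101, FDR 0.00478), both below 1.5 fold, while no step between neighbouring ages passed for either. The step of Csf2rb2 from 2 to 4 months, 0.32, was near the threshold (FDR 0.0567) and passed without any of 4 single libraries (rTg4510 replicate 2 of 2 months and 2 of 4 months, and WT replicates 2 and 3 of 6 months). Within a library, Csf2rb minus Csf2rb2 was 1.24 ± 0.0918 in WT and 1.27 ± 0.0717 in rTg4510 at 2 months (SD, n = 4 each, exact p = 0.514), 1.40 ± 0.118 and 1.34 ± 0.158 at 4 months (n = 3 each, exact p = 0.6), 1.25 ± 0.117 and 1.35 ± 0.112 at 6 months (n = 4 each, exact p = 0.4), and 1.29 ± 0.134 and 1.34 ± 0.0522 at 8 months (n = 3 each, exact p = 0.5). The distance between the paralogs differed between genotypes by 0.10 or less at each age. With single libraries left out, the difference kept its sign at 2 and 6 months (0.01 to 0.08 and 0.05 to 0.14) and not at 4 and 8 months (-0.13 to 0.02 and 0 to 0.13). The part of reads shared by the 2 genes in this distance was not tested.

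**Figure D4:**
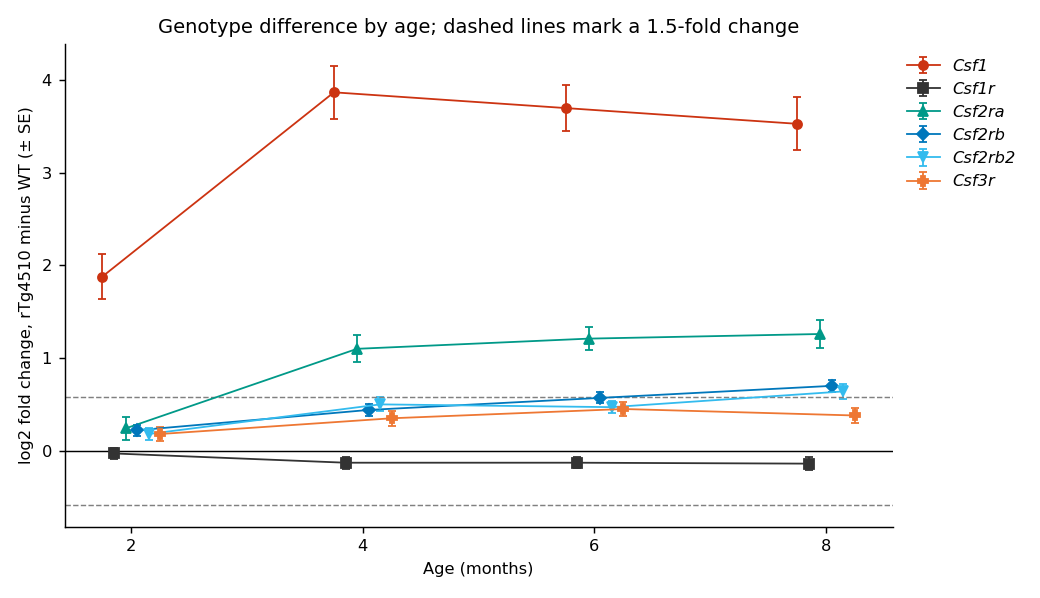
Log2 fold change of rTg4510 against WT (y axis, points with bars of ± SE) by age in months (x axis, points shifted sideways for clarity) for the 6 genes, with dashed lines at a change of 1.5 fold. Csf1 lies between 1.88 and 3.87, Csf2ra crosses the upper line between 2 and 4 months, Csf2rb and Csf2rb2 are above it at 8 months, Csf3r stays between 0.18 and 0.45, and Csf1r stays between -0.14 and -0.03.

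Csf3r, the granulocyte colony-stimulating factor receptor, was higher in rTg4510 but never by 1.5 fold. The gene lies at chr4:126023441-126044975. In WT the log2 signals were 8.65, 8.92, 8.88 and 8.94 at 2 months, 9, 8.83 and 8.94 at 4 months, 9.11, 8.92, 8.94 and 8.93 at 6 months, and 9, 8.73 and 8.96 at 8 months. In rTg4510 they were 9, 9.04, 9.13 and 8.97 at 2 months, 9.31, 9.13 and 9.38 at 4 months, 9.42, 9.36, 9.45 and 9.46 at 6 months, and 9.20, 9.26 and 9.37 at 8 months. The genotypes did not overlap at any age. The log2 fold changes were 0.18 (SE 0.0706, FDR 0.16), 0.35 (SE 0.0815, FDR 0.00281), 0.45 (SE 0.0706, FDR 3.38e-05) and 0.38 (SE 0.0815, FDR 0.00119) at 2, 4, 6 and 8 months. After quantile normalization the differences at 4 and 8 months were 0.20 and 0.19 and no longer passed the FDR threshold, nor did they with all 32 libraries (0.05 and 0.39) or with the libraries of the age alone (0.35 and 0.38).

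Since Csf3r is best known from neutrophils, it was set beside 10 neutrophil markers (S100a8, S100a9, Ngp, Camp, Ltf, Ly6g, Retnlg, Cxcr2, Mmp8 and Elane). The markers that passed were lower in rTg4510. None was a DEG at 2 or 4 months in limma's test (0 and 5 at an unadjusted p under 0.05), 8 of the 10 were lower DEGs at 6 months and 7 at 8 months, where 8.54% and 5.37% of all genes were lower DEGs. S100a8, a subunit of calprotectin and abundant in neutrophils, was 7.84 ± 0.617 in WT and 5.68 ± 0.376 in rTg4510 at 6 months (SD, n = 4 each, log2 fold change -2.15, SE 0.384, FDR 0.000142). The log2 of the summed marker signal was 9.40 to 10.82 in rTg4510 and 9.66 to 10.22 in WT at 2 months, and 9.60 to 9.98 against 9.79 to 10.73 at 4 months. It was 8.98 to 9.24 against 9.73 to 10.71 at 6 months, and 9.07 to 9.75 against 10.52 to 10.74 at 8 months. The genotypes overlapped at 2 months, where rTg4510 replicates 1 and 2 were above all WT libraries, and at 4 months, and rTg4510 was lower without overlap at 6 and 8 months. Elane and Ly6g were near the lowest value of the library in 19 and 16 of 28 libraries. The part of neutrophils in the Csf3r signal was not tested.

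**Figure D5:**
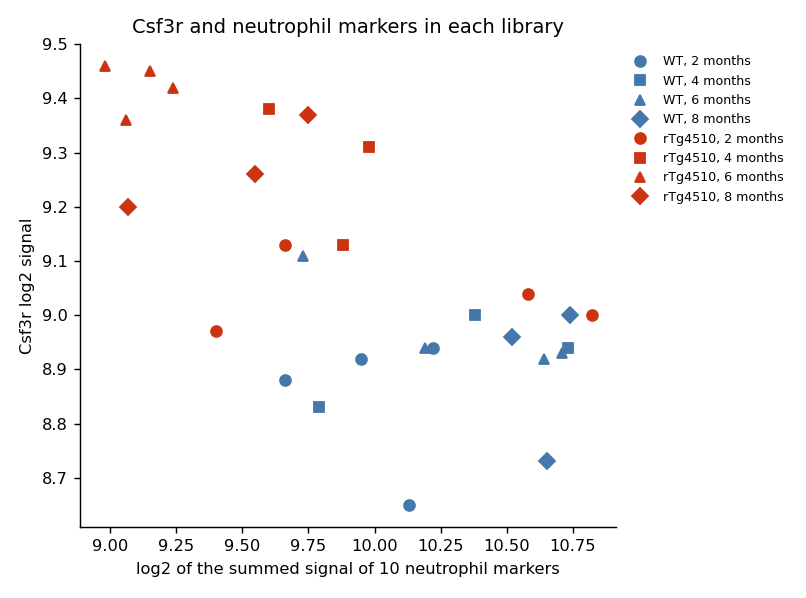
Log2 signal of Csf3r (y axis) against the log2 of the summed signal of 10 neutrophil markers (x axis) in the 28 libraries, with colour for genotype and symbol for age. The rTg4510 libraries of 6 months lie at the upper left, with Csf3r at 9.36 to 9.46 and the markers at 8.98 to 9.24.

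The counts over the family read as follows against the whole table. At 2, 4, 6 and 8 months 1, 2, 2 and 4 of the 6 genes were higher DEGs, where 1.58%, 9.47%, 11.3% and 10.5% of all genes were. By the FDR alone 2, 5, 5 and 5 were higher, against 4.76%, 14.1%, 19.1% and 16.0% of all genes. In 4, 5, 5 and 5 of the 6 genes every rTg4510 library was above every WT library, which held for 7.49%, 19.1%, 18.2% and 21.2% of all genes. No member was a lower DEG, where 0.403%, 4.33%, 8.54% and 5.37% of all genes were. The median log2 fold change of the 6 was 0.20, 0.47, 0.52 and 0.67, and that of all genes lay between -0.037 and 0.014.

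Averaged over the 4 ages, Csf1 (3.24) and Csf2ra (0.95) were DEGs, against 16.5% of all genes in either direction. The same pair, and no other member, had a genotype difference that grew by more than 1.5 fold between 2 and 4 months, with 4.66% of all genes called, and between 2 and 8 months, with 6.70% called. Between 4 and 6 and between 6 and 8 months 0 members passed limma's test, with 0 at an unadjusted p under 0.05 and 0 with moderated variances, and 0.156% and 0% of all genes were called. Within rTg4510 the called members were Csf1 and Csf2ra from 2 to 4 months (6.39% of all genes) and Csf1 from 2 to 8 months (10.5%), and none from 4 to 6 (0.818%) or from 6 to 8 months (0.00538%), where 2 and 1 members had an unadjusted p under 0.05. Within WT none was called in the steps from 2 to 4, 4 to 6 and 6 to 8 months or from 2 to 8 months (0.0484%, 0.00538%, 0% and 1.27% of all genes), with 1, 2, 1 and 2 members at an unadjusted p under 0.05 and none called with moderated variances.

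Across the 28 libraries the 5 genes other than Csf1r varied together, as a description over libraries that share genotype and age groups. The Pearson r of Csf1 was 0.928 with Csf2ra, 0.909 with Csf2rb, 0.86 with Csf2rb2 and 0.84 with Csf3r, and -0.54 with Csf1r. Once the group means were removed, r was 0.476 for Csf1 with Csf2ra and between -0.289 and -0.0899 for Csf1 with the other receptors. Csf1r went with Csf2rb (0.548) and Csf3r (0.562) within groups. Csf2ra had a within-group r of -0.0834 with Csf2rb, -0.121 with Csf2rb2 and -0.124 with Csf3r. Among the remaining receptors it was 0.247 for Csf2rb with Csf2rb2, 0.333 for Csf2rb with Csf3r and 0.186 for Csf2rb2 with Csf3r.

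The genes whose signals were most like each member over the 28 libraries were named by the highest r, of which a large part comes from the group means. For Csf1 these were Lpl, lipoprotein lipase (r = 0.986, and 0.785 within groups), Adssl1 (0.985, 0.685) and Fth1, the ferritin heavy chain (0.984, 0.861). For Csf1r they were Sh2b3, an adaptor of cytokine receptor signalling (0.936, 0.832), Cxxc5 (0.906, 0.67) and Arsb, a lysosomal sulfatase (0.899, 0.684). Csf2ra was closest to Fmn1, Eif3k and Rplp0 (0.951, 0.951 and 0.95), Csf2rb to Coro1c, Eef2 and Slc25a3 (0.961, 0.956 and 0.954), and Csf2rb2 to Arl5c, Coro1c and Sfxn3 (0.937, 0.928 and 0.926). Csf3r was closest to Csf1r-ps, a locus listed as a pseudogene of Csf1r (0.948, 0.674), to Atp6ap1 (0.941) and to Atp5b (0.936). The signal of Csf1r-ps is uncertain, since its reads may be shared with Csf1r. Within groups the likeness of Csf2rb to its closest genes was 0.231 to 0.528.

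Downstream of the Csf1 receptor, 25 of 25 listed signalling genes had a row, of which 0, 2, 3 and 2 were higher DEGs and none a lower one at the 4 ages. Tyrobp, the adaptor DAP12 that couples the receptor to Syk, had log2 fold changes of 0.37, 1.35, 1.31 and 1.17 at 2, 4, 6 and 8 months (FDR 0.00125, 7.96e-11, 6.28e-12 and 5.73e-10) and was a DEG from 4 months on. Fyn, a Src family kinase, was a DEG at 4, 6 and 8 months (0.70, 0.95 and 0.90), and Mapk3, the kinase ERK1, at 6 months (0.63, FDR 4.88e-08). By the FDR alone 5, 6, 9 and 8 of the 25 were higher, where 4.76%, 14.1%, 19.1% and 16.0% of all genes were. By the same rule 0, 6, 5 and 3 were lower. The share of all genes lower by this rule is not given here, so the lower counts were not compared with it. Syk itself was among the lower ones at 4 months (-0.35, FDR 0.0228) and 6 months (-0.28, FDR 0.0251). The median of the list was 0.08, 0.03, 0.10 and 0.17. The 2 or 3 DEGs of 25 genes are close to the share of higher DEGs among all genes.

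Of the 15 JAK-STAT genes that the granulocyte-macrophage and granulocyte receptors signal through or induce, 1, 3, 2 and 4 were higher DEGs and 0 lower ones, where 1.58%, 9.47%, 11.3% and 10.5% of all genes were higher DEGs. Socs2, a feedback inhibitor of cytokine signalling, had log2 fold changes of 0.84, 1.71, 1.89 and 1.45 at the 4 ages (FDR 0.0475, 0.000106, 3.18e-06 and 0.000548), the one at 2 months being lost with a replicate block. Osm, the cytokine oncostatin M, was a DEG at 4, 6 and 8 months (0.75, 1.71 and 1.43). Bcl2l1, which codes for the survival factor BCL-XL, was one at 4 and 8 months (0.65 and 0.87), and Pim1, a kinase induced by STAT5, at 8 months (1.01, FDR 0.0374). The medians of this list were 0.13, -0.03, 0.19 and 0.20.

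All 8 transcription factors listed for the Csf1r locus had a row. Cebpb (0.63, FDR 0.0137) and Irf8 (0.61, FDR 9.47e-05) were higher DEGs at 6 months and Ets2 (0.60, FDR 0.00884) at 8 months, all close to 1.5 fold, and none was a DEG after quantile normalization. Of the other haematopoietic growth factors and receptors, 10 of 16 had a row and 0 were DEGs at any age in limma's test, with 0, 2, 2 and 3 at an unadjusted p under 0.05. By the FDR alone 0, 1, 1 and 1 of them were lower, and after quantile normalization 0, 1, 1 and 2 were DEGs. Neither of these sets of counts has a share of all genes beside it here.

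Markers of other cells that can carry these receptors or enter a CD11b preparation were listed too. Among 7 monocyte markers 1 was a lower DEG at 4 months, 4 were lower and 2 higher at 6 months, and 1 was higher at 8 months. The summed monocyte signal was 7.44 to 8.10 in rTg4510 and 7.80 to 8.12 in WT at 2 months, 7.32 to 7.50 against 7.86 to 8.19 at 4 months, 7.55 to 8.40 against 7.96 to 7.99 at 6 months, and 8.26 to 8.64 against 7.93 to 8.35 at 8 months. It was lower in rTg4510 at 4 months, overlapped at the other ages, and had the higher mean in rTg4510 at 6 and 8 months. The median log2 fold change of the 7 markers was -0.06, -0.31, -0.78 and -0.04 at 2, 4, 6 and 8 months. The mean of the sum, which was taken over linear signals, and this median thus went opposite ways at 6 months. Among 8 border macrophage markers 0, 1, 1 and 0 were lower DEGs and none was higher, and among 8 dendritic cell markers 1, 2, 1 and 2 were lower and none was higher. The summed border macrophage signal was lower in rTg4510 without overlap at 4 months (10.25 to 10.51 against 10.59 to 11.37 in WT). The genotypes met at 10.91 at 2 months and overlapped at 6 and 8 months. The summed dendritic cell signal was lower in rTg4510 without overlap at 2 months (8.21 to 8.40 against 8.56 to 8.71 in WT) and 4 months (8.10 to 8.32 against 8.58 to 8.86), and overlapped at 6 months (8.40 to 8.98 against 8.81 to 9.10) and 8 months (8.56 to 8.98 against 8.69 to 9.31). Of 3 neuron markers 1 was a lower DEG at 6 months, of 8 oligodendrocyte markers none was a DEG (0, 1, 1 and 1 at an unadjusted p under 0.05), and of 8 astrocyte markers 2 and 3 were lower and 1 was higher (Gfap) at 6 and 8 months. Of 8 endothelial markers 1, 3 and 1 were lower and 1 was higher at 4, 6 and 8 months. The astrocyte and neuron sums were lower in rTg4510 without overlap at 4, 6 and 8 months. At 6 months they were 9.54 to 9.82 against 10.26 to 10.52 (astrocytes) and 4.89 to 5.89 against 5.90 to 6.32 (neurons). The neuron marker Syt1 was near the lowest value in 14 of 28 libraries. The oligodendrocyte sum was lower without overlap at 6 months alone, and the endothelial sums overlapped at each age. Among the microglia markers themselves 1, 2, 3 and 3 of 9 were lower DEGs, among them Tmem119 and Sall1, and 4, 7 and 7 were DEGs at 4, 6 and 8 months after quantile normalization. Aif1 went the other way, with log2 fold changes of 0.36 at 6 months (FDR 0.00808) and 0.40 at 8 months (FDR 0.0132), below 1.5 fold. For the counts after quantile normalization no share of all genes is given here, so they were not compared with one. The part of the listed cell types in the signals of the 6 genes was not tested.

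The excluded libraries were set beside the others last. At 4 months the excluded rTg4510 library had Csf1 at 9.69 and Csf1r at 12.78, the highest of all libraries for both, but Csf2rb at 7.50 and Csf3r at 8.54, below the excluded WT library of that age (8.08 and 9.38). At 8 months the excluded pair kept the order of the other libraries, with Csf1 at 9.20 against 5.73, Csf2ra at 6.76 against 5.33 and Csf3r at 9.72 against 9.31. With all 32 libraries the differences of Csf2rb, Csf2rb2 and Csf3r at 4 months were 0.19, 0.26 and 0.05 and none passed, while Csf1 and Csf2ra kept their calls.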

How the data were processed

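The table holds 1 signal per gene and library from RNA of CD11b-bead microglia. The authors summed the exon reads of repeated runs, dropped exons with low counts, combined exons with a robust linear model, took log2 and normalized the libraries to a common median, and the log2 values were used as deposited. The build was GRCm38 per the submitters' processing notes, while the aligner, its version and the handling of reads that fit several genes are not given in the sources used here. Every library was sequenced deeply, to about the same number of reads by the study's methods, but the values keep no read totals per library or gene, so no counting interval is given. The reads were 100 bases long and paired.

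RefSeq GRCm38.p6 named 17828 (95.9%) of the 18588 Entrez numbers. Groups were taken from the labels, and the 28 libraries that the authors kept were analysed. A linear model of genotype and age, as the study's methods name it, was fitted as 8 group means with unmoderated variances, a choice made here (20 residual degrees of freedom), with limma 3.58.1 in R 4.3.3, with Benjamini-Hochberg adjustment over 18588 genes within a contrast. Differences between 2 genes in a library were tested by exact permutation, two-sided. Replicates are separate pools of animals, so p-values measure the spread between pools. Named genes were the 6 members, the 3 genes with the highest Pearson r to each, and, per pathway list, up to 4 genes with the largest change among the DEGs. Marker genes given by name were picked from their lists after their values were seen, and 1 listed microglia marker is not reported here. The members and lists were chosen with earlier results of these data known, and the contrasts of 8 with 2 months after the values were seen. Deviations of same-numbered libraries from their group means correlated at 2 months (r between 0.0649 and 0.167), 4 months (-0.0999 and 0.124), 6 months (0.131 and 0.153) and 8 months (0.15 and 0.291), so that every pair was above 0.1 at 6 and 8 months alone. Differently numbered pairs lay at -0.194 to 0.0816, -0.0709 to 0.154, -0.127 to 0.0913 and -0.259 to -0.0281 at the 4 ages. At 6 and 8 months they were all below the same-numbered pairs, which the main model did not pair. The labels do not say what the numbers mark. Promoters came from the RefSeq table, which had 4 of the 6 members, and the beta chains' coding sequences from GENCODE M21, aligned with Biopython 1.88. The test was run on simulated data before use. Alternatives were a replicate block, all 32 libraries, quantile normalization, moderated variances, the groups of a contrast alone, a filter on low signals, an added constant, and leaving out each library.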

Additional observations from a re-analysis of the deposited data

Results flagged for a closer look

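The genotype difference of 2 members changed between 2 and 4 months by limma's test of the difference itself, by 1.99 on the log2 scale for Csf1 and by 0.86 for Csf2ra. Between 2 and 8 months, a comparison chosen after the values were seen, it grew by 1.65 for Csf1, 1.02 for Csf2ra, 0.48 for Csf2rb and 0.46 for Csf2rb2. Csf1 had all of this growth by 4 months (1.99) and Csf2ra most of it (0.86), whereas the steps of the beta chains did not pass singly.

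Csf3r in WT replicate 1 at 6 months, 9.11, lay far from the other 3 libraries of its group (8.92 to 8.94) by Dixon's test. It was the 1 such value in 24 groups of 4 libraries, and chance gives about 1 in 20.

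Among the libraries that the authors left out, rTg4510 replicate 3 at 4 months was above all WT libraries of its age in Csf1 (9.69), Csf1r (12.78) and Csf2ra (6.73). Replicate 4 of rTg4510 at 8 months was above all WT libraries of its age in Csf1 (9.20), Csf2ra (6.76), Csf2rb (8.75), Csf2rb2 (7.41) and Csf3r (9.72).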

How the results depend on the processing

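Csf1 kept its direction and its FDR call at all 4 ages, and Csf2ra at 4, 6 and 8 months, under every alternative run. With all 32 libraries, 1 and 2 members passed the FDR at 2 and 4 months, Csf2rb at 2 months (0.22) and 4 months (0.19), Csf2rb2 at 4 months (0.26), Csf3r at 4 and 8 months (0.05 and 0.39) and the mean of Csf1r (-0.07) no longer passed, and Csf1r at 4 months turned to 0.03. There, 1 member had a called change of the genotype difference from 2 to 4 months, and this change turned sign for Csf1r (0.06), Csf2rb (-0.03) and Csf3r (-0.13), none of which had passed. In the same libraries 2 members were called within rTg4510 from 2 to 8 months, the WT changes of Csf2rb and Csf2rb2 turned to 0.09 and 0.05, and Csf1 minus Csf1r at 4 and 8 months was 3.90 and 3.66 and passed (exact p = 0.0286). Quantile normalization brought Csf1r past the FDR at all ages (-0.34, -0.65, -0.71 and -0.69), took Csf2rb at 2 months (0.19) and Csf3r at 4 and 8 months (0.20 and 0.19) below it, and turned 2 differences that had not passed (Csf2rb in WT from 2 to 8 months, 0.02, and Csf2rb minus Csf2rb2 at 8 months, -0.02). Moderated variances left 1 member past the FDR at 2 months, without Csf2rb (0.22). With the groups of a contrast alone 1 and 3 members passed at 2 and 4 months, without Csf2rb at 2 months (0.22), Csf2rb2 at 4 months (0.50) and Csf3r at 4 and 8 months (0.35 and 0.38), and 1 member was called for the change of the genotype difference and within rTg4510 from 2 to 4 months. This alternative has fewer samples, and the cause of the other changes was not tested.

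The replicate block changed no limma call of a member, took Csf1 minus Csf1r (1.91 at 2 months and 3.83 at 6 months) to an exact p of 0.125, and cannot be fitted to changes with age within a genotype. Leaving out 1 library gave 1 to 2 members past the FDR at 2 months, with Csf2rb at 0.19 to 0.25 and lost in 6 fits. It gave 2 to 3 DEGs among the members at 4 months and at 6 months, with Csf2rb2 at 0.43 to 0.59 and Csf2rb at 0.52 to 0.61. Csf1r was -0.1 to 0 at 2 months and -0.16 to -0.1 at 6 months, where it passed without rTg4510 replicate 4 of 6 months or WT replicate 1 of 2 months. From 2 to 8 months 0 to 1 members were called in WT (1 without WT replicate 2 of 8 months) and 1 to 2 in rTg4510 (2 without replicate 1 or 3 of 2 months), with WT values of -0.08 to 0.21 for Csf1, -0.09 to 0.01 for Csf2rb and -0.02 to 0.13 for Csf3r. Csf2rb minus Csf2rb2 was -0.13 to 0.02 at 4 months and 0 to 0.13 at 8 months.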
